A study of Danio rerio with 2 samples.

Results

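The angiopoietin and VEGF signalling genes are 9 genes of the 32057 listed in both matrices. They comprise the ligands angpt1, angpt2a, angpt2b and vegfaa, the angiopoietin-side receptors tie1 and tek, and the VEGF receptors kdrl, flt1 and flt4. They were picked as ligands and receptors of blood vessels, and the set was chosen by a measured value, the level of angpt2a in endothelial cells of the mutant library. Endothelial values of these genes and their differences between the libraries are therefore given as descriptions, without a test. All 9 genes were found under their own symbols and had UMIs in both libraries, between 70 and 6587 UMIs per gene and library.

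As background, angiopoietins are secreted ligands of the endothelial receptor Tek, also called Tie2, and Tie1 is its partner receptor. In mammals Angpt1, often made by cells around the vessel, activates Tek and steadies the vessel wall, whereas Angpt2, made by endothelial cells themselves, is known as a context-dependent antagonist linked to vessel remodelling. VEGF ligands act on endothelial receptor kinases: in zebrafish Kdrl is the main signalling receptor for Vegfa, Flt1 binds Vegfa and limits its supply, and Flt4 is the receptor for Vegfc that guides lymphatic vessels. The hypothalamus is densely vascularised, and its vessels carry hormones to and from the brain.

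Hypothalami of 6-month-old male zebrafish (AB strain per the methods) came from wild-type fish (WT) and from cck1−/−;cck2−/− double knockouts made by CRISPR/Cas9, here called CCK1/2-KO, in which both cholecystokinin genes are edited throughout the body. Tissue of 30 fish was pooled per group, dissociated with trypsin, EDTA and DNase II, and gave 1 droplet-based library per group. The groups have no replicates, so genotype, pool, dissociation and library cannot be told apart, and no p-value is given. A level is the number of unique molecular identifiers (UMIs, tags that count single transcripts) of a gene per 1000000 UMIs of its cell class, written CPM, and its Poisson 95% interval stands in parentheses. A difference is the log2 of the CCK1/2-KO level over the WT level, written log2 KO/WT, with an exact 95% interval. All intervals cover counting error only.

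After filtering, 8560 WT cells (47605450 UMIs) and 10418 CCK1/2-KO cells (52674643 UMIs) remained, at a median of 3062 and 2879 UMIs per cell. The edited gene ccka stood at 376 CPM in WT and 163 CPM in CCK1/2-KO, and since the tags read the transcript and not the protein, this does not measure the loss of the peptide. Of the barcode sequences, 52 occurred in both libraries and 44 among the kept cells, and these were treated as different cells. Of 36 clusters, 24 took a class name from markers, and the 9 genes were left out of the genes used for clustering. All class names are "-like" names. The vascular endothelium-like cluster was marked by all 4 of cdh5, she, egfl7 and etsrp and held 326 cells in WT and 305 in CCK1/2-KO. Names were given to clusters and not to single cells. A UMI of she was present in 23.3% and 34.4% of these cells, and one of etsrp in 78.5% and 88.5%. The mural cell-like cluster was marked by pdgfrb and notch3 (115 and 168 cells), and the astroglia-like clusters by slc1a2b (620 and 717 cells). Cluster 5 held pdgfrb, notch3 and rgs5a together with 8 astroglia markers and stayed unnamed, because pdgfrb and notch3 are also present in glia of this tissue. Lymphatic endothelium-like cells, named from lyve1b, stab1 and stab2, numbered 25 and 46, and held 0 and 1 UMI of cdh5.

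The vascular endothelium-like class was not the same mixture in both libraries. A UMI of both pdgfrb and notch3 was present in 126 of the 326 WT cells and in 90 of the 305 CCK1/2-KO cells, and these barcodes were deeper, at a median of 11141.5 and 13153.5 UMIs. The other mural markers summed to 2517 CPM in WT and 1417 CPM in CCK1/2-KO, and all 6 measured ones were lower in CCK1/2-KO beyond their intervals. The 4 endothelial markers used for naming summed to 2538 CPM in WT and 3695 CPM in CCK1/2-KO and were all higher beyond their intervals. Of 5 other endothelial markers measured, 3 were higher and 2 lower beyond their intervals, the latter sox7 at a log2 KO/WT of −0.34 (−0.42 to −0.25) and fli1 at −0.13 (−0.23 to −0.03). The share of all genes beyond their intervals was not counted, so these marker counts have no background beside them. Genes of stress and dissociation summed to 27605 and 34317 CPM, with hsp70l, a heat shock gene, at 4618 and 8239 CPM. The higher hsp70l level was not particular to this class, since cells outside the endothelia had 2350 and 4294 CPM. Because of the mural markers, the main endothelial values below are also given without the barcodes that had both pdgfrb and notch3. This subset was chosen after the data were seen. The part of mural RNA and of stress in the differences was not tested.

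The ligands came from different cells. angpt1 (ENSDARG00000030364) reached its highest level among classes with at least 50 cells per library in astroglia-like cells, with 666 UMIs in WT (138 CPM, 128 to 149) and 551 UMIs in CCK1/2-KO (104 CPM, 95.1 to 113). Mural cell-like cells followed at 72.9 CPM in WT and 74.6 CPM in CCK1/2-KO, next to unnamed cluster 16 at 82.1 and 58.7 CPM. The intervals of astroglia-like and mural cell-like cells overlapped in CCK1/2-KO but not in WT. Of all angpt1 UMIs, astroglia-like cells held 39.5% (WT) and 31.6% (CCK1/2-KO), and neuron-like cells, at 20.5 and 22.9 CPM, held 24.7% and 29.2%. The small thrombocyte-like class, named from itga2b, mpl and gp1bb, stood far above all of these. It held 76 angpt1 UMIs in 9 of 11 WT cells and 98 in 16 of 24 CCK1/2-KO cells, which is 3118 and 2873 CPM. Thrombocytes are the nucleated clotting cells of fish, and mammalian platelets also store ANGPT1.

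Between the libraries, angpt1 was lower in CCK1/2-KO in astroglia-like cells, at a log2 KO/WT of −0.42 (−0.58 to −0.25), and at −0.18 (−0.46 to 0.09) in glia gated one by one on slc1a2b. The lower level was carried by cluster 9, the deepest of the 4 astroglia-like clusters, with 170 and 123 CPM and a log2 KO/WT of −0.47 (−0.64 to −0.29). In clusters 13, 19 and 27 the counts were too low to set the level apart from no difference. In mural cell-like cells the log2 KO/WT was 0.03 (−0.73 to 0.80), from 28 and 35 UMIs. Oligodendrocyte precursor-like cells had 68 UMIs in WT against 25 in CCK1/2-KO, a log2 KO/WT of −1.04 (−1.77 to −0.36). The share of all genes past 2-fold was not counted in that class, so this value has no background beside it. Summed over all kept cells, angpt1 was at 35.4 CPM in WT and 33.1 CPM in CCK1/2-KO.

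In vascular endothelium-like cells angpt1 went the other way, with 44 UMIs in 24 WT cells against 131 in 49 CCK1/2-KO cells, a log2 KO/WT of 1.51 (1.01 to 2.04). A thrombocyte marker differed in the same direction: itga2b, the platelet integrin, had 25 and 71 UMIs in the same cells. Barcodes with a UMI of itga2b or mpl held 7 of the angpt1 UMIs in 6 WT cells and 87 in 17 CCK1/2-KO cells. Without them, 37 UMIs in 320 WT cells against 44 in 288 CCK1/2-KO cells were left, and the log2 KO/WT was 0.27 (−0.39 to 0.94). Leaving out cells with gp1bb as well gave 0.20 (−0.53 to 0.93), but gp1bb also marked the erythrocyte-like cluster, where 32.7% and 30.1% of cells had a UMI of it. The highest CCK1/2-KO cell alone held 31 angpt1 UMIs. With the 3 highest cells per library left out, the log2 KO/WT was 0.76 (0.08 to 1.45). In cells of any cluster gated one by one on the endothelial markers it was 3.61 (2.00 to 5.91), from 3 and 77 UMIs. The part of thrombocyte RNA in these 2 values was not tested. Barcodes without both mural markers had 8 and 100 angpt1 UMIs, a log2 KO/WT of 3.07 (2.03 to 4.32), and 6 and 62 UMIs of itga2b, whereas barcodes with both had 36 and 31 angpt1 UMIs, a log2 KO/WT of 0.14 (−0.60 to 0.88).

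**Figure D1:**
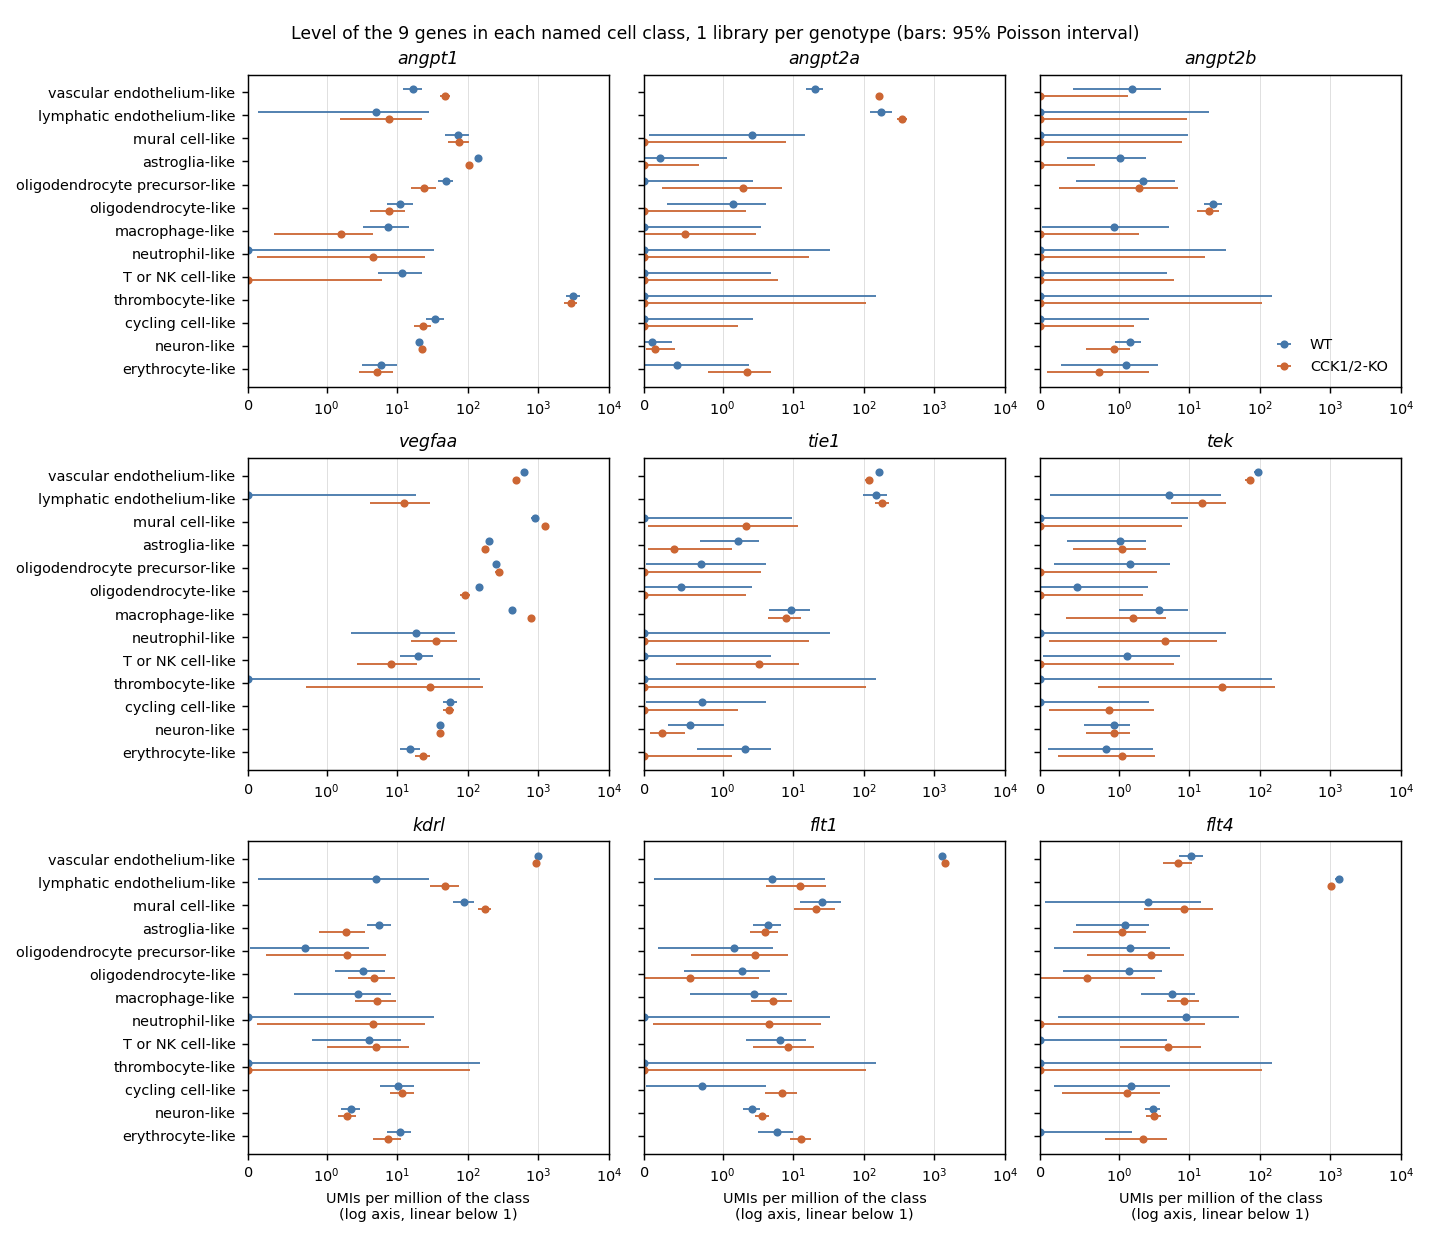
UMIs per 1000000 UMIs of the class for each of the 9 genes (panels) in the 13 named classes (rows), with WT in blue and CCK1/2-KO in orange, 1 library each; points are CPM and bars are exact Poisson 95% intervals on a log axis that is linear below 1. angpt2a stands out in the 2 endothelial classes, flt4 in lymphatic endothelium-like cells and angpt1 in thrombocyte-like cells.

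angpt2a (ENSDARG00000014946) was confined almost wholly to the 2 endothelial classes. Vascular endothelium-like cells held 51.5% (WT) and 72.6% (CCK1/2-KO) of its UMIs, and lymphatic endothelium-like cells held 34.0% and 22.0%. The remaining 8209 WT and 10067 CCK1/2-KO cells together had 15 and 34 UMIs, or 0.335 and 0.686 CPM. Mural cell-like cells had 1 UMI in WT and 0 in CCK1/2-KO, where a count of 0, taken as up to 3 counts, allows up to 6.40 CPM, and astroglia-like cells also had 1 and 0. As a measure of free RNA, a UMI was present in 0.0805% of 1243 WT and 0.341% of 1759 CCK1/2-KO erythrocyte-like cells, which are not known to make this ligand and had a median of 977 and 936 UMIs.

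In vascular endothelium-like cells, angpt2a had 53 UMIs in WT against 455 in CCK1/2-KO. This is 20.3 CPM (15.2 to 26.5) against 167 CPM (152 to 183), a log2 KO/WT of 3.04 (2.63 to 3.48). In WT, 19 of 326 cells had a UMI (5.83%), and in CCK1/2-KO 86 of 305 (28.2%). After each cell was thinned to 1000 UMIs, to set aside depth, the shares were 1.35% of 296 cells and 12.7% of 276 cells. The thinned share in CCK1/2-KO erythrocyte-like cells was 0.132% of 757.

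Both the share of cells with a detected UMI and the UMIs per such cell were higher in CCK1/2-KO. At these counts a higher level alone raises both, so more expressing cells cannot be told from more transcript per cell. Among WT cells 12 had 1 UMI, 6 had 2 to 4 and 1 had 5 or more, whereas among CCK1/2-KO cells 24, 35 and 27 fell in these ranges. The median over cells with a UMI was 1 in WT and 3 in CCK1/2-KO. A lone WT cell with 21 UMIs held a large part of the 53 WT UMIs, and the next highest WT cell had 4. The highest CCK1/2-KO cells had 46 and 37 UMIs. With the 3 highest cells per library left out, the log2 KO/WT was 3.81 (3.21 to 4.47), so the higher level did not rest on a few mutant cells.

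**Figure D2:**
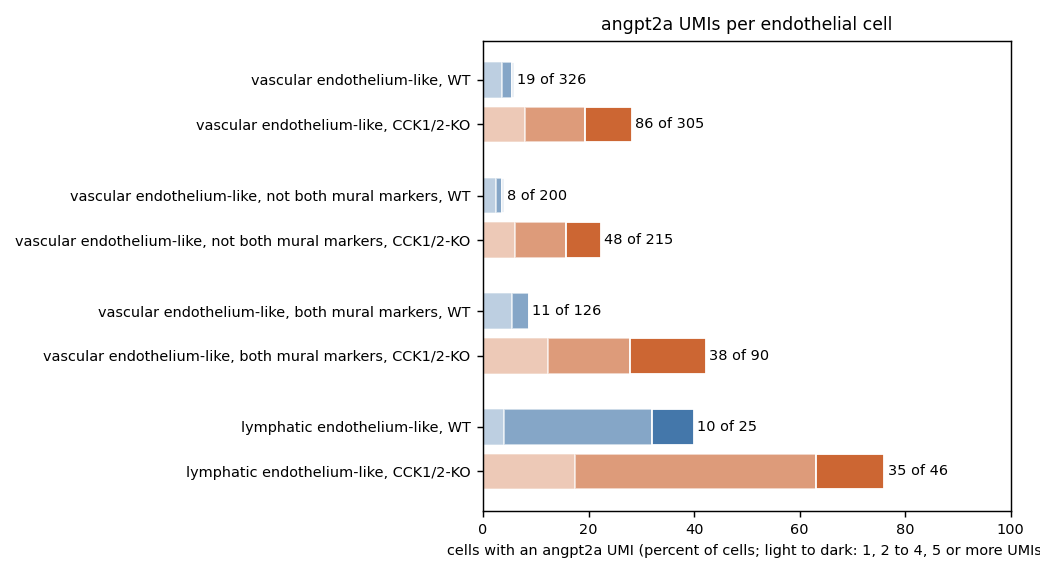
Percent of endothelial cells with an angpt2a UMI, by class and library, split from light to dark into 1, 2 to 4, and 5 or more UMIs, with the numbers of cells with a UMI and of all cells. In each pair the CCK1/2-KO bar is the longer, 86 of 305 against 19 of 326 in vascular endothelium-like cells.

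The higher angpt2a level appeared in each of the following subsets of vascular endothelium-like cells, and under other choices of endothelial cells. Barcodes without both mural markers had 32 UMIs in 200 WT cells against 271 in 215 CCK1/2-KO cells, a log2 KO/WT of 2.50 (1.97 to 3.08). Barcodes with both mural markers had 21 UMIs in 126 cells and 184 UMIs in 90 cells, a log2 KO/WT of 3.49 (2.84 to 4.22). Without cells carrying a thrombocyte marker the log2 KO/WT was 3.07, and without those with itga2b or mpl it was 3.09. At resolution 2.0, vascular endothelium-like cells formed a shallow, a middle and a deep cluster, the deep one with mural markers. Together these clusters numbered 368 cells in WT and 463 in CCK1/2-KO, more than the 326 and 305 of the class. They thus took in barcodes from outside the class and are not a split of it. The log2 KO/WT values of the shallow, middle and deep clusters were 2.18 (0.12 to 5.34), 2.47 (1.96 to 3.02) and 3.76 (3.02 to 4.60), the shallow one from 2 and 18 UMIs. Cells gated one by one on the endothelial markers were taken from all kept cells and are not a subset of the class. They gave the smallest ratio, 2.06 (1.53 to 2.63), from 32 UMIs in 69 WT cells against 281 in 125 CCK1/2-KO cells. They held 43 and 109 UMIs of flt4, the gene that marked lymphatic endothelium-like cells, against 28 and 19 in the class. The part of lymphatic cells in this ratio was not tested.

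In lymphatic endothelium-like cells angpt2a was already the more abundant of the endothelial classes in WT, at 178 CPM (124 to 248) from 35 UMIs, against 350 CPM (294 to 414) from 138 UMIs in CCK1/2-KO. The log2 KO/WT was 0.97 (0.43 to 1.55), and a UMI was seen in 10 of 25 WT cells against 35 of 46 in CCK1/2-KO. Thinned to 1000 UMIs these shares were 3 of 24 and 9 of 43, too few cells to separate the libraries. The interval of the lymphatic ratio lay wholly below that of the vascular ratio, but whether the difference between the libraries was larger in vascular cells was not tested.

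**Figure D3:**
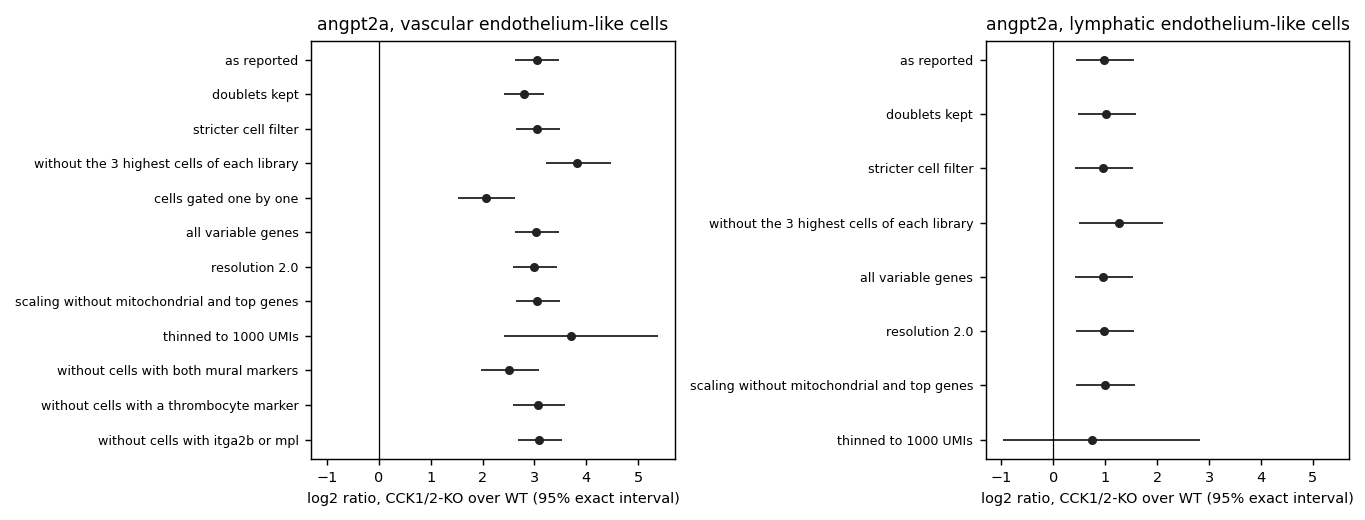
Log2 KO/WT of angpt2a, CCK1/2-KO over WT, in vascular (left) and lymphatic (right) endothelium-like cells as reported and under each processing alternative (rows), with points for ratios and bars for exact 95% intervals of counting error. The vascular values run from 2.06 to 3.81 and all intervals lie above 0, and the lymphatic interval holds 0 only when cells are thinned to 1000 UMIs. The lowest vascular value, 2.06, is from cells gated one by one among all kept cells and not from the class alone.

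Among the 7516 genes with at least 50 UMIs in vascular endothelium-like cells, ordered by log2 KO/WT with 5 CPM added, angpt2a ranked 2 from the top. The genes beside it were hbae5, an embryonic globin gene, at 1.53 and 40.0 CPM, then gramd2aa (4.21 and 43.0 CPM), mb, the myoglobin gene (23.0 and 137 CPM), and si:dkey-78l4.5 (9.96 and 69.4 CPM). The 5 lowest were cyp19a1b, the brain aromatase of radial glia, at 386 and 44.1 CPM, ENSDARG00000113960 (42.9 and 1.84 CPM), slc7a2, a cationic amino acid transporter (26.4 CPM and 0), ENSDARG00000103903 (52.9 and 4.77 CPM), and cpa4 (24.5 CPM and 0). Globin, myoglobin and brain aromatase genes, none of them endothelial markers, thus stood at the ends of the order. Without barcodes with both mural markers angpt2a ranked 7 of 4666 genes.

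Of the 9 genes, 7 reached 50 UMIs in vascular endothelium-like cells. At least 2-fold higher in CCK1/2-KO were 2 of them, angpt1 and angpt2a, where 2.53% of all genes tested were that much higher, and 0 were 2-fold lower, where 4.36% of all genes were. The genes were named with this contrast known, so the count is a description. The median log2 KO/WT was −0.09 over the 7 genes and −0.06 over all genes. Without barcodes with both mural markers 2 of 7 were again at least 2-fold higher, beside 3.36% of 4666 genes, and 0 were 2-fold lower, beside 4.03%. Both counts include angpt1. Its log2 KO/WT in the whole class was 0.27 (−0.39 to 0.94) once barcodes with itga2b or mpl were left out.

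angpt2b (ENSDARG00000053906), the other angiopoietin-2 gene of zebrafish, had few UMIs and a different source. Oligodendrocyte-like cells, the myelinating glia, held 47 of its 103 WT UMIs and 32 of its 70 CCK1/2-KO UMIs (45.6% and 45.7%). These lay in 17 of 386 and 10 of 322 cells, at 21.8 CPM (16.0 to 29.0) and 18.9 CPM (12.9 to 26.7), a log2 KO/WT of −0.21 (−0.90 to 0.47). With the 3 highest cells per library left out, 19 and 12 UMIs were left in this class, so a few cells held most of them. Every other class with at least 50 cells per library was below 10 CPM in both libraries. In vascular endothelium-like cells angpt2b had 4 UMIs in WT against 0 in CCK1/2-KO, and 0 of 305 cells allows a share of cells with a detected UMI of up to 0.984%, which does not limit the share that expressed the gene. Mural cell-like cells had 0 UMIs in both libraries. Over all kept cells angpt2b was lower in CCK1/2-KO, at a log2 KO/WT of −0.70 (−1.16 to −0.25), opposite in sign to angpt2a, at 2.46 (2.16 to 2.77). Such ratios also take in the mix of cells, and oligodendrocyte-like cells made up 4.51% of kept WT cells and 3.09% of kept CCK1/2-KO cells. The part of this mix in the angpt2b ratio was not tested.

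vegfaa (ENSDARG00000103542), a VEGF-A gene of the zebrafish, was spread over many classes. Among classes with at least 50 cells per library, mural cell-like cells had the highest level. It was 342 UMIs in WT (891 CPM, 799 to 990) and 579 UMIs in CCK1/2-KO (1235 CPM, 1136 to 1340). Vascular endothelium-like cells stood at 638 and 478 CPM and macrophage-like cells at 430 and 798 CPM, and these classes stood in opposite order in the libraries, with intervals that did not overlap in either. Oligodendrocyte precursor-like cells had 251 and 277 CPM, astroglia-like cells 200 and 174 CPM, oligodendrocyte-like cells 147 and 92.7 CPM, and neuron-like cells 41.2 and 40.2 CPM. Erythrocyte-like cells, as a measure of free RNA, had 15.5 and 23.1 CPM, in 2.74% and 3.13% of cells. Over all kept cells vegfaa was level between the libraries, at 5846 and 6587 UMIs and a log2 KO/WT of 0.03 (−0.02 to 0.08).

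This even total held differences of opposite sign. Macrophage-like cells had more in CCK1/2-KO, with 459 UMIs in 74 of 243 WT cells against 1516 in 169 of 365 CCK1/2-KO cells, a log2 KO/WT of 0.89 (0.74 to 1.04). Their share of all vegfaa UMIs was 7.85% in WT and 23.0% in CCK1/2-KO. The higher level lay in cluster 15, whose leading genes included the inflammatory cytokine genes il1b, cxcl8a and csf3a, with 497 CPM in WT and 873 CPM in CCK1/2-KO, a log2 KO/WT of 0.81 (0.66 to 0.97). In cluster 20, with the complement genes c1qa, c1qb and c1qc among its leading genes, vegfaa had 19 UMIs in both libraries, 105 and 102 CPM. Cluster 15 held 110 of the 243 WT cells and 213 of the 365 CCK1/2-KO cells of the class. The median macrophage-like cell had 1647 UMIs in WT against 4693 in CCK1/2-KO, and after thinning to 1000 UMIs 18.3% of 169 and 33.6% of 286 cells had a vegfaa UMI.

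In mural cell-like cells vegfaa was also higher in CCK1/2-KO, at a log2 KO/WT of 0.47 (0.28 to 0.67), with a UMI in 78.3% and 77.4% of cells. When all kept cells were gated one by one on pdgfrb and notch3, the ratio was −0.24 (−0.42 to −0.07). This set had 219 WT and 293 CCK1/2-KO cells, against 115 and 168 in the class, so it took in cells of other classes. What those cells did to the ratio was not tested. Vascular endothelium-like cells had less vegfaa in CCK1/2-KO, 1665 and 1301 UMIs and a log2 KO/WT of −0.42 (−0.52 to −0.31). Without barcodes with both mural markers the ratio was −0.17 (−0.35 to 0.01), from 456 and 406 CPM. With both markers the levels were 744 and 559 CPM. Oligodendrocyte-like cells were lower, at −0.67 (−0.95 to −0.39), unnamed cluster 5 at −0.73 from 251 and 152 CPM, and astroglia-like cells at −0.20 (−0.33 to −0.07). In glia gated one by one on slc1a2b the ratio was 0.11 (−0.04 to 0.26). Members with at least 50 UMIs numbered 3 in mural cell-like, 2 in astroglia-like, 2 in oligodendrocyte-like and 1 in macrophage-like cells. Of these 0 passed 2-fold, where 11.2%, 4.79%, 5.91% and 9.1% of all genes tested did in either direction. These members are too few to set apart from those shares.

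The receptors sat in endothelium. Vascular endothelium-like cells held 84.8% (WT) and 73.2% (CCK1/2-KO) of tie1 UMIs, 82.7% and 73.0% of tek, 91.6% and 88.1% of kdrl, and 94.4% and 90.9% of flt1. tie1 was also present in lymphatic endothelium-like cells at 148 and 183 CPM, whereas tek had 1 and 6 UMIs there, kdrl 1 and 19, and flt1 1 and 5. Outside both endothelia tie1 stood at 1.05 and 0.928 CPM, tek at 1.12 and 1.33 CPM, kdrl at 5.34 and 6.54 CPM, and flt1 at 4.44 and 7.57 CPM. As a measure of free RNA, 1.13% and 1.93% of erythrocyte-like cells had a UMI of flt1, 2.09% and 1.14% one of kdrl, and 0.161% and 0.171% one of tek.

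tie1 (ENSDARG00000004105), the orphan partner of Tek, had 425 UMIs in 131 WT cells against 323 in 110 CCK1/2-KO cells of the vascular class. This is 163 CPM (148 to 179) and 119 CPM (106 to 132), a log2 KO/WT of −0.46 (−0.67 to −0.24). tek (ENSDARG00000028663), the receptor that angiopoietins bind, had 244 UMIs in 126 cells and 195 UMIs in 106 cells, 93.4 CPM (82.1 to 106) and 71.6 CPM (61.9 to 82.4), a log2 KO/WT of −0.38 (−0.66 to −0.11). Both Tie genes were thus lower in CCK1/2-KO by less than 2-fold, in the same class in which angpt2a was higher. In the order of 7516 genes given above, counted from the highest, tie1 ranked 6302 and tek 5919, so many other genes were lower by more. In cells of any cluster gated one by one on the endothelial markers, the tie1 ratio was −0.20 (−0.56 to 0.16). Without barcodes with both mural markers the tie1 and tek ratios were −0.40 (−0.71 to −0.09) and −0.43 (−0.83 to −0.03). After thinning, the shares of cells with a UMI were 11.1% and 9.78% for tie1 and 7.77% and 6.88% for tek, too close to set apart at this depth. In lymphatic endothelium-like cells the tie1 ratio was 0.31 (−0.33 to 0.98).

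kdrl (ENSDARG00000105215) had 2604 UMIs in WT against 2543 in CCK1/2-KO in vascular endothelium-like cells, 997 and 934 CPM, and was detected in 83.7% and 83.9% of the cells. The log2 KO/WT of −0.09 (−0.17 to −0.02) was close to the median of −0.06 over all genes, and it was −0.23 (−0.34 to −0.12) without barcodes with both mural markers. flt1 (ENSDARG00000019371) had 3357 and 3813 UMIs, 1286 and 1400 CPM, in 85.6% and 87.9% of the cells. Its log2 KO/WT was 0.12 (0.06 to 0.19) in the whole class and −0.11 (−0.20 to −0.01) without barcodes with both mural markers, so its direction depended on which cells were counted. In mural cell-like cells kdrl had 34 UMIs in 19 WT cells against 82 in 44 CCK1/2-KO cells, a log2 KO/WT of 0.98 (0.39 to 1.60), while cdh5, the endothelial cadherin, had 62 and 28 UMIs in the same cells.

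flt4 (ENSDARG00000104453) marked the lymphatic endothelium-like cells, which carried a UMI of it in 24 of 25 cells (WT) and 44 of 46 (CCK1/2-KO) and held 59.9% and 67.8% of its UMIs. The level was 1315 CPM (1159 to 1486) in WT from 258 UMIs and 1033 CPM (935 to 1138) in CCK1/2-KO from 407 UMIs. The log2 KO/WT was −0.35 (−0.58 to −0.12), or −0.17 (−0.44 to 0.11) with the 3 highest cells per library left out, and after thinning 75.0% of 24 and 48.8% of 43 cells had a UMI. In vascular endothelium-like cells flt4 had 28 and 19 UMIs, a log2 KO/WT of −0.62 (−1.54 to 0.27), which does not separate the libraries. Neuron-like cells held 62 and 70 flt4 UMIs at 3.05 and 3.15 CPM. Of the 3 genes measured in lymphatic endothelium-like cells, 0 passed 2-fold, where 12.8% of 1668 genes did.

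**Figure D4:**
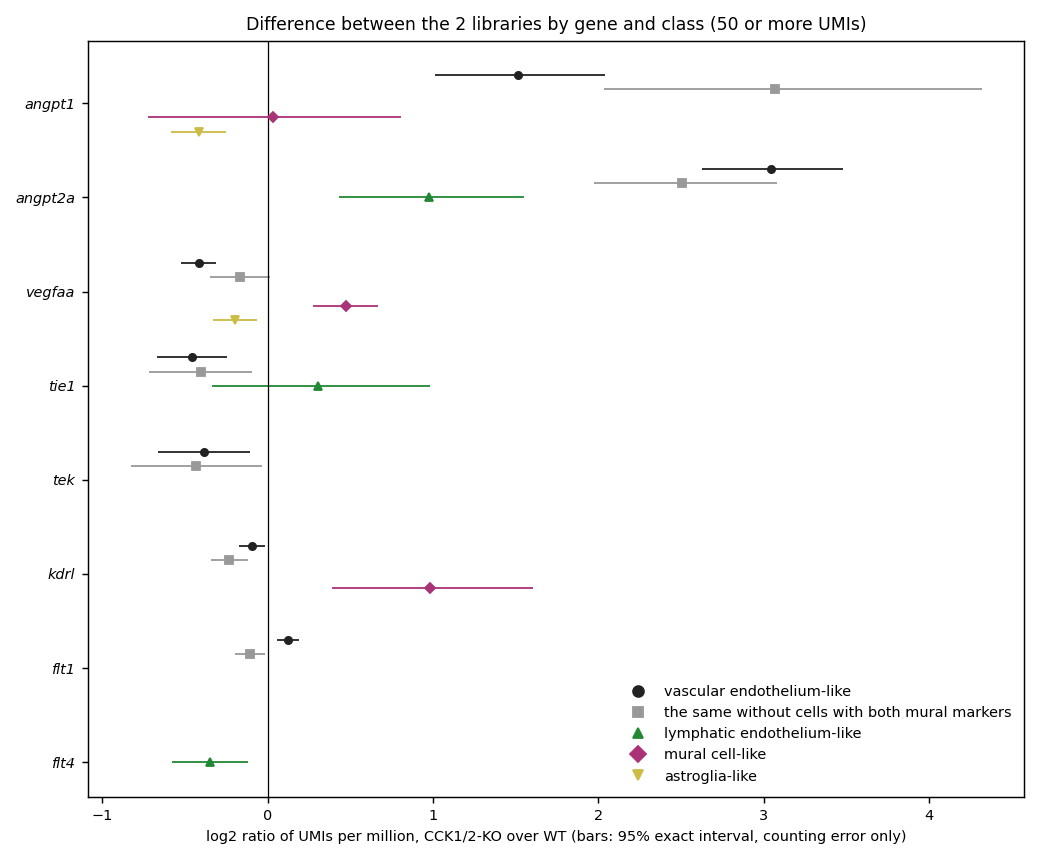
Log2 KO/WT of UMIs per 1000000, CCK1/2-KO over WT, for members (rows) with at least 50 UMIs in a class, with exact 95% intervals for counting error, in vascular endothelium-like cells with and without barcodes with both mural markers and in lymphatic endothelium-like, mural cell-like and astroglia-like cells (symbols). angpt2a lies to the right of 0 in both endothelia, tie1 and tek lie to the left in vascular cells, and flt1 lies on either side of 0.

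Ligand and receptor transcripts were found in the same endothelial barcodes. Of the 86 CCK1/2-KO vascular endothelium-like cells with angpt2a, 36 also had tek, 34 tie1, 81 kdrl, 82 flt1 and 68 vegfaa. Of the 19 WT cells with angpt2a, 16 had tek, 7 tie1, 18 kdrl, 18 flt1 and 16 vegfaa. Cells with angpt2a were deeper than those without it, at a median of 9924 against 5769 UMIs in CCK1/2-KO and 11985 against 5041 in WT, so the CPM levels are the fairer comparison. In CCK1/2-KO, cells with and without angpt2a had 67.9 and 73.9 CPM of tek, 112 and 123 CPM of tie1, 918 and 944 CPM of kdrl, and 1357 and 1427 CPM of flt1, with overlapping intervals for each. Among tip cell genes, dll4, the Notch ligand of sprouting cells, stood at 295 CPM (263 to 330.3) with and 184 CPM (164 to 205) without angpt2a, and esm1 at 12.4 (6.62 to 21.3) and 1.79 CPM (0.369 to 5.23) from 13 and 3 UMIs. In WT, dll4 stood at 359 CPM (293 to 436) with and 206 CPM (188 to 226) without angpt2a, and tek at 155 (113 to 208) and 85.9 CPM (74.4 to 98.7). The gap in CCK1/2-KO was not particular to tip cell genes. cdh5, a general endothelial marker, stood at 439 CPM (399.6 to 481) with and 327 CPM (300.5 to 356) without angpt2a, and pdgfrb, a mural marker, at 398 CPM (360.4 to 438) and 320 CPM (293 to 348). apln, another tip cell gene, had overlapping intervals in CCK1/2-KO, at 98.5 CPM (80.4 to 119) and 84.7 CPM (71.3 to 99.8). In WT apln was lower in the cells with angpt2a, at 3.52 CPM (0.0892 to 19.6) from 1 UMI against 42.1 CPM (34.2 to 51.3). vegfaa was lower in the cells with angpt2a in CCK1/2-KO, at 407 CPM (370 to 448) against 522 CPM (488 to 557), but not in WT, at 659 CPM (568 to 760) against 635 CPM (603 to 668).

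Lists of other vessel genes held 98 symbols, of which 80 genes were found and 56 reached 50 UMIs in vascular endothelium-like cells. At least 2-fold higher in CCK1/2-KO were 5 of the 56, and 2 were 2-fold lower, beside 2.53% and 4.36% of all genes. Intervals lay above 0 for 18 and below 0 for 12. The share of all genes with such intervals was not counted, so counts by interval here and in the lists below have no background beside them. The lists were chosen with earlier results of these data known.

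Of 2 other VEGF ligands measured, vegfc, the lymphatic growth factor, had 9 UMIs in 7 WT cells against 47 in 11 CCK1/2-KO cells, a log2 KO/WT of 2.32 (1.28 to 3.54). With the 3 highest cells per library left out it was 1.26. Barcodes without both mural markers had 1 and 44 vegfc UMIs, a log2 KO/WT of 4.88 (2.33 to 10.2), and barcodes with both had 8 and 3, a log2 KO/WT of −1.05 (−3.60 to 1.00). vegfc was also found in thrombocyte-like cells, at 944 and 469 CPM from 23 and 16 UMIs, and in astroglia-like cells at 52.3 and 48.5 CPM. vegfab, the other VEGF-A gene, had 32 and 29 UMIs and a log2 KO/WT of −0.20 (−0.98 to 0.57). It was scarce in this class and in some others, such as mural cell-like cells with 14 and 13 UMIs. Over all kept cells it had 6157 and 6536 UMIs. Oligodendrocyte precursor-like cells had vegfab at 2310 and 2521 CPM, and astroglia-like cells at 257 and 298 CPM, both above their vegfaa levels. Of 4 VEGF receptors and coreceptors, the neuropilin nrp2b was higher in CCK1/2-KO, with 65 and 137 UMIs and a log2 KO/WT of 1.01 (0.58 to 1.46). nrp1b was lower, with 59 and 30 UMIs and a log2 KO/WT of −1.04 (−1.72 to −0.38). nrp1a was at 0.29 (−0.03 to 0.61) and kdr, the paralog of kdrl, at −0.13 (−0.37 to 0.11). Of 3 angiopoietin-Tie partners, ptprb, the phosphatase that turns Tek signalling down, was lower at −0.31 (−0.41 to −0.21), from 1915 and 1612 UMIs, and at −0.08 (−0.23 to 0.06) without barcodes with both mural markers. The transcription factors foxo1a and foxo1b, which act below Tek, were at −0.00 (−0.09 to 0.08) and 0.22 (−0.09 to 0.54).

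Of 11 tip cell and Notch genes, 2 were at least 2-fold higher. cxcr4a, a chemokine receptor of sprouting vessels, had 406 UMIs in 91 WT cells against 971 in 142 CCK1/2-KO cells, a log2 KO/WT of 1.20 (1.03 to 1.37). apln, the ligand of the apelin receptor, had 99 UMIs in 36 cells and 245 UMIs in 44 cells, a log2 KO/WT of 1.25 (0.90 to 1.60), and 0.92 once the 3 highest cells per library were left out. Its log2 KO/WT was 1.88 (1.36 to 2.44) without both mural markers and −0.06 (−0.64 to 0.51) in barcodes with both, so the higher level lay in the barcodes without them. Thrombocyte-like cells had apln at 8246 and 8296 CPM in every cell, so apln, like angpt1, was higher there than in endothelium. The thrombocyte marker itga2b had 6 and 62 UMIs in the endothelial barcodes without both mural markers. The part of thrombocyte RNA in the apln and vegfc differences was not tested. dll4 was level at 0.02 (−0.14 to 0.19), while efnb2a, the arterial ephrin, was at 0.51 (0.29 to 0.73), notch1b at 0.43 (0.20 to 0.66), notch1a at −0.43 (−0.65 to −0.21), or −0.01 without barcodes with both mural markers, and jag2b at −0.43 (−0.66 to −0.21).

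Of 9 hypoxia genes, intervals lay above 0 for 6 and below 0 for 2. egln3, an oxygen-sensing prolyl hydroxylase and a known hypoxia target, had 75 and 198 UMIs, a log2 KO/WT of 1.34 (0.95 to 1.74). slc2a1a, the endothelial glucose transporter Glut1, had 282 UMIs in 109 WT cells against 88 in 57 CCK1/2-KO cells, a log2 KO/WT of −1.74 (−2.10 to −1.39), and −2.13 without barcodes with both mural markers. epas1b, a HIF-2 alpha gene, was at 0.26 (0.22 to 0.30) from 7792 and 9723 UMIs, ldha at 0.37 (0.26 to 0.47), hif1ab at −0.06 (−0.18 to 0.05) and egln1b at −0.95 (−1.13 to −0.77). Genes known as hypoxia targets thus stood on both sides of 0.

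The remaining lists had no gene past 2-fold in the whole class. Of 3 PDGF genes, pdgfba and pdgfbb, the ligands that recruit mural cells, were at 0.40 (0.22 to 0.58) and 0.43 (0.29 to 0.56). Of 4 basement membrane genes, 3 were lower, among them spock3 at −0.92 (−1.03 to −0.81), or −1.08 without barcodes with both mural markers, and sparc at −0.38 (−0.48 to −0.27), with sparc at −0.04 (−0.22 to 0.13) without barcodes with both mural markers. Of 7 flow, TGF-beta and sphingosine genes, klf2a was at −0.02 (−0.11 to 0.06), klf2b at −0.10 and s1pr1 at −0.10, and acvrl1, a BMP receptor of vessels, at 0.25 (0.14 to 0.35). Of 7 junction and barrier genes, intervals lay above 0 for 2 and below 0 for 0. The 2 were slc7a5 at 0.75 (0.33 to 1.18) and jam3b at 0.39 (0.09 to 0.69). In the same list cldn5a, a tight junction gene, was at 0.01 (−0.10 to 0.12), abcb4 at −0.22 (−0.47 to 0.03) and tjp1b at −0.10 (−0.38 to 0.18). Of 6 transcription factors, the intervals of 1 lay above 0, fli1rs at 0.47 (0.33 to 0.61), and of 1 below 0, lmo2 at −0.20.

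**Figure D5:**
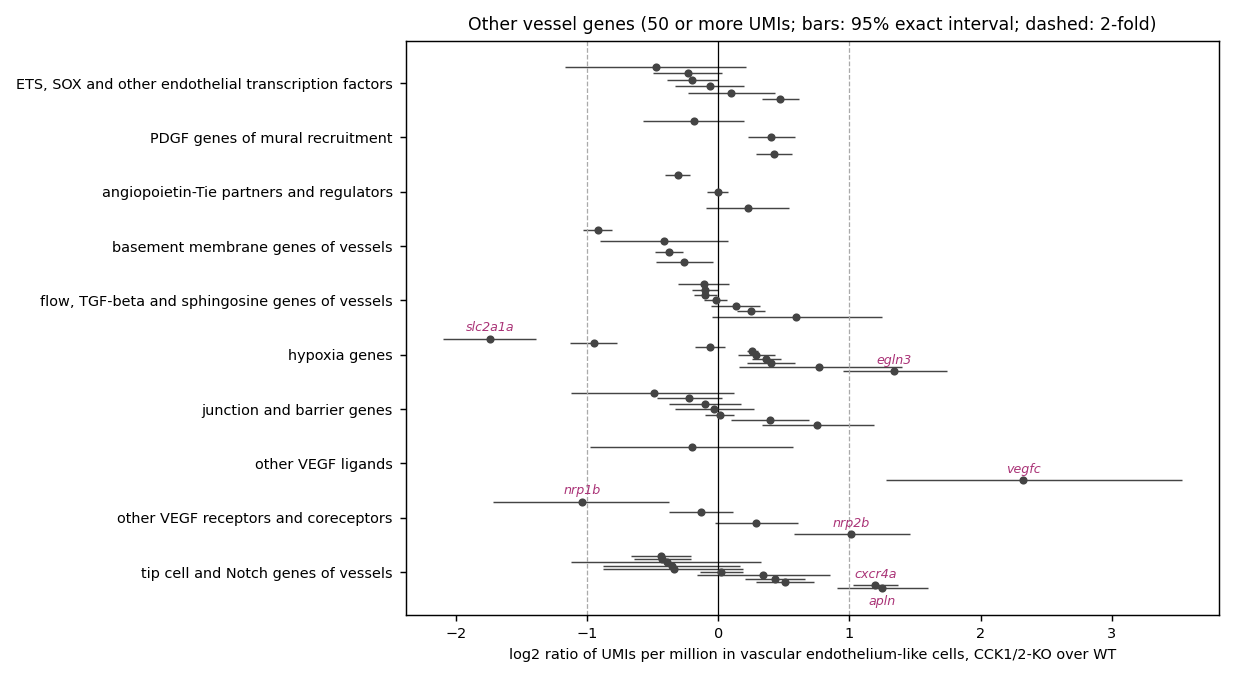
Log2 KO/WT of UMIs per 1000000 in vascular endothelium-like cells, CCK1/2-KO over WT, for the 56 measured genes of the vessel lists (rows), with exact 95% intervals for counting error and dashed lines at 2-fold. The 7 named genes past it are vegfc, nrp2b, apln, cxcr4a and egln3 to the right and nrp1b and slc2a1a to the left.

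The genes whose levels over classes and libraries were most like those of angpt2a were sought among 18067 genes, by Pearson correlation of log2(CPM + 5) over 50 points, 25 classes in 2 libraries. They were tfpi2, a coagulation inhibitor (r = 0.929), si:ch73-95a24.1 (0.918), vap (0.916), clec14a, an endothelial lectin gene (0.903), and trpm4a, a cation channel (0.897). The points share libraries and depth, and the correlation is a description. In vascular endothelium-like cells tfpi2 stood at 23.7 CPM in WT and 20.6 CPM in CCK1/2-KO and clec14a at 152 and 106 CPM, so in this class these 2 genes were not higher in CCK1/2-KO, unlike angpt2a. si:ch73-95a24.1 was at 21.8 and 42.6 CPM, vap at 17.6 and 21.3 CPM, and trpm4a at 15.3 and 29.7 CPM.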

How the data were processed

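Single-cell RNA-seq counts of 2 hypothalamus libraries, 1 per genotype, were analysed. The authors deposited, for each library, a matrix of raw UMI counts per gene and barcode made with Cell Ranger; the submitters' notes also name Seurat and the build GRCz11, but the deposited counts carried no normalization or cell types. Groups follow the genotype label. Barcodes needed 500 UMIs, 250 genes and no more than 20% of UMIs from mitochondrial genes (117 and 3 WT and 130 and 4 CCK1/2-KO barcodes failed), and the barcodes with the highest Scrublet scores were removed at 0.8% per 1000 barcodes (684 WT and 1052 CCK1/2-KO). Their median depth, 2279 and 2078 UMIs, was below that of kept cells, so some may have been single cells.

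Cells were clustered jointly in Python 3.11.15 with scanpy 1.11.5 on 2000 variable genes, 30 principal components and 15 neighbours (Leiden, resolution 1.0), leaving out 101 members and listed genes and 81 genes that differed between the libraries. A marker counted if at least 10% of a cluster's cells had it at 2-fold the level of other cells, thresholds set after the data were seen, and a name needed 3 markers. As an alternative, cells were gated one by one, as endothelium with at least 3 of cdh5, she, egfl7 and etsrp, as mural cells with both pdgfrb and notch3, or as glia with at least 3 UMIs of slc1a2b, and cells that passed more than 1 gate were left out. The gates were applied to all kept cells, whatever their cluster. Of 235 listed genes 211 were found, some under synonyms. Where features had no symbol in the files (11398), 8368 were named from a gene table.

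UMIs were summed per class and library and scaled to 1000000, with exact Poisson intervals. Ratios have the exact interval for 2 Poisson counts, which treats UMIs as independent. Shares were thinned to 1000 UMIs per cell, which left 6351 WT and 7525 CCK1/2-KO cells. With 1 library per group no test was run. The ratio and interval were checked on simulated independent Poisson counts, as the interval assumes. This checked the calculation and not whether these data meet that assumption. All 9 members are named, and the 5 genes most like angpt2a and the 5 highest and lowest in the endothelial class. From the lists, genes with at least 50 UMIs in vascular endothelium-like cells and over 2-fold apart are named, with up to 3 more per list with the most UMIs, and a few others, chosen after their values were seen, are given for context. The members and lists were chosen with earlier results of these data known. Sequences and coordinates are not used here.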

Additional observations from a re-analysis of the deposited data

Results flagged for a closer look

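For 3 members the difference between the libraries took opposite signs in 2 classes, with both intervals clear of 0. vegfaa had a log2 ratio, CCK1/2-KO over WT, of 0.89 in macrophage-like cells and −0.73 in the unnamed cluster 5. angpt1 had 1.51 in vascular endothelium-like cells, where itga2b moved with it, and −1.04 in oligodendrocyte precursor-like cells. kdrl had 0.98 in mural cell-like cells and −0.09 in vascular endothelium-like cells, the latter close to the median of −0.06 over all genes of that class. The classes were compared within 1 library per genotype, and the differences between classes were not tested.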

How the results depend on the processing

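Over 17 results and 153 alternatives, 125 values stayed within counting error of those reported, 22 moved further and 6 changed sign where the reported interval was clear of no difference. In 5 more the sign changed within an interval that held no difference. These were 1 of flt4 in vascular endothelium-like cells (0.27 in gated cells of any cluster) and 4 of angpt1 in mural cell-like cells. Doublets kept, the stricter cell filter, all variable genes and scaling without mitochondrial and top genes moved none of the log2 ratios beyond counting error. The gates were applied to all kept cells, so the gated sets hold other cells than the classes. The gated endothelial set held 43 and 109 flt4 UMIs, against 28 and 19 in the vascular class. The log2 ratio of angpt2a was 3.04 in vascular endothelium-like cells and 2.06 in gated endothelial cells. In the gated endothelial cells tie1 was at −0.20, tek at −0.68, kdrl at −0.41 and flt1 at −0.18. There angpt1 was at 3.61, from 3 and 77 UMIs, against 1.51 in the class. In gated glia angpt1 was at −0.18 and vegfaa at 0.11, and in gated mural cells vegfaa was at −0.24. The ratio of the shares of vascular endothelium-like cells, 0.769 as reported, was 1.49 with the gate and 1.03 at resolution 2.0. Thinned to 1000 UMIs, angpt2a was at 3.71, tie1 at −0.20, tek at −0.10 and angpt1 in astroglia-like cells at −0.15. Without the 3 highest cells per library, in vascular endothelium-like cells, angpt2a was at 3.81 and angpt1 at 0.76. Chosen after seeing the data, leaving out barcodes with both mural markers gave 2.50 for angpt2a, −0.23 for kdrl and −0.11 for flt1, and leaving out those with itga2b or mpl gave 0.27 for angpt1. The causes were not tested.

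No paired analysis was possible because each genotype has 1 library and the labels give only replicate 1. No ratio is given for angpt2a or angpt2b in mural cell-like or astroglia-like cells, where at least 1 library had no UMI. Intervals leave out differences between fish, pools and library preparations, and are too narrow where few cells hold many UMIs.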
